A study of Arabidopsis thaliana with 9 samples.

Results

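Jasmonate is the plant hormone of wounding and of defense against chewing insects and necrotrophic fungi, and it also controls stamen development and root growth. It was followed here through 10 genes among the 33602 gene identifiers of the count table. The 10 were chosen by name as textbook members of the pathway, with earlier results of these data known. They are *LOX2* (AT3G45140), *AOS* (AT5G42650), *AOC1* (AT3G25760), *AOC2* (AT3G25770) and *OPR3* (AT2G06050), which encode enzymes of jasmonate synthesis, *JAZ1* (AT1G19180), which encodes a repressor, *MYC2* (AT1G32640), which encodes a transcription factor, and *VSP1* (AT5G24780), *VSP2* (AT5G24770) and *PDF1.2* (AT5G44420), which respond to the hormone. Each of them was measured by RNA-seq of whole Arabidopsis seedlings of the Col-0 ecotype, 8 days old, grown on plates at 21 °C in long days, with 3 libraries per genotype. The *bdr1,2,3* triple mutant joins insertions in *BDR1* (stock SALK_142108C), *BDR2* (CS852350) and *BDR3* (SALK_059905), which encode BORDER proteins that resemble transcription elongation factors. The *fpa* mutant carries the fpa-7 allele of *FPA*, which encodes an RNA-binding protein that promotes flowering and controls where transcripts end. Wild type was Col-0, and the labels name no hormone treatment or wounding.

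Jasmonate is made from linolenic acid of the chloroplast membranes. A lipoxygenase such as LOX2 adds oxygen, allene oxide synthase (AOS) and an allene oxide cyclase (AOC1 or AOC2) convert the product to the precursor OPDA, and the reductase OPR3 acts on OPDA in the peroxisome before the chain is shortened. The isoleucine conjugate of jasmonate brings JAZ repressors such as JAZ1 to the receptor COI1 for degradation, which frees MYC2. MYC2 favors wound-response genes such as *VSP1* and *VSP2*, while the factors ERF1 and ORA59 favor defense genes such as *PDF1.2*, which encodes an antifungal defensin and also needs ethylene. The synthesis genes and *JAZ1* are themselves induced by jasmonate.

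Library totals were 14557440 to 24810614 counts for *bdr1,2,3*, 16995153 to 20384978 for *fpa* and 8676610 to 26861793 for wild type. Wild-type replicate 12 was the shallowest library and stood apart: 7 leaf photosynthesis genes together took 57800 CPM in it (counts scaled to library size by TMM, per 1000000), against 34500 and 35900 CPM in the other wild-type libraries. Expression of *BDR1* was 0.894 to 1.95 CPM in *bdr1,2,3* and 29.1 to 42.0 CPM in wild type, *BDR2* fell by 0.85 on the log2 scale (adjusted p = 0.0177), and *BDR3* was not called (log2 fold change -0.76, adjusted p = 0.226). *FPA* RNA did not separate *fpa* (37.9 to 45.5 CPM) from wild type (42.3 to 63.2 CPM), so its level does not check that label. *FLC*, a flowering repressor known to be high in *fpa* plants and chosen here after its values were seen, was at 109 to 125 CPM in *bdr1,2,3* and 103 to 136 CPM in *fpa*, against at most 18 CPM in wild type, so it separated both mutants from wild type and did not mark *fpa* (log2 difference of *bdr1,2,3* and *fpa* -0.04 ± 0.18). The 9 root markers summed to 115 to 145 CPM in *bdr1,2,3*, 142 to 153 CPM in *fpa* and 142 to 183 CPM in wild type, and the 4 flower markers to at most 3.69 CPM in any library. Of the leaf photosynthesis markers *RCA* alone was called, lower in *bdr1,2,3*. All 7 had a negative fitted change in *bdr1,2,3* (median log2 fold change -0.22) and in *fpa* (-0.43), in fits that include wild-type replicate 12. Of the root markers *PHT1;1* alone was called, lower in both mutants, while 6 of the 9 had a positive fitted change in *bdr1,2,3* (median log2 fold change 0.26) and 5 of the 9 in *fpa* (0.44).

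*PDF1.2*, the one of the 10 with the largest fitted change in *fpa*, belongs to a family of near-copies, and the upstream sequence of 4 of them is shown because these genes were high in the same libraries. *PDF1.2* and *PDF1.2c* stand in tandem on chromosome 5, 1211 bp apart, and *PDF1.3* and *PDF1.2b* in tandem on chromosome 2, 1121 bp apart, each pair on 1 strand. Capitals mark the GCC box (GCCGCC, searched on both strands), the element that ERF1 and ORA59 are known to bind. The 300 bases before each annotated gene start are given from the RefSeq genome TAIR10.1, 5′ to 3′ on the strand of the gene. *PDF1.2* is from chr5:17907639-17907938 (minus strand), *PDF1.2c* from chr5:17909508-17909807 (minus strand), *PDF1.3* from chr2:11086980-11087279 (plus strand) and *PDF1.2b* from chr2:11088823-11089122 (plus strand).
PDF1.2: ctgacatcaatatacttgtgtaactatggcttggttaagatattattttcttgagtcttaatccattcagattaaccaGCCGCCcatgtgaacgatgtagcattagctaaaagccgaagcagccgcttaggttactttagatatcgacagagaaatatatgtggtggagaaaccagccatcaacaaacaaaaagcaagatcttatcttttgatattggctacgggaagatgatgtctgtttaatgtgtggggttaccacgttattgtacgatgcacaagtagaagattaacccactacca
PDF1.2c: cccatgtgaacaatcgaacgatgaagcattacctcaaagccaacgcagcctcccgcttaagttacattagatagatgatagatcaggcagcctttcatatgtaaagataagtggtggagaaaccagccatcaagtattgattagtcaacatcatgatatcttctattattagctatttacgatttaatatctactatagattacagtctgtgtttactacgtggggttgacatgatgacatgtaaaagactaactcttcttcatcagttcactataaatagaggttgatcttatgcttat
PDF1.3: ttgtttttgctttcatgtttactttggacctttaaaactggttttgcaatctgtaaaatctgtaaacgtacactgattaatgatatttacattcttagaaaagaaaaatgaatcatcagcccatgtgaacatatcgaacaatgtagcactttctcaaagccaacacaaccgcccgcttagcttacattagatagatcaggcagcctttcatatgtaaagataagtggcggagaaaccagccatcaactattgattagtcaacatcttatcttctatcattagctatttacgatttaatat
PDF1.2b: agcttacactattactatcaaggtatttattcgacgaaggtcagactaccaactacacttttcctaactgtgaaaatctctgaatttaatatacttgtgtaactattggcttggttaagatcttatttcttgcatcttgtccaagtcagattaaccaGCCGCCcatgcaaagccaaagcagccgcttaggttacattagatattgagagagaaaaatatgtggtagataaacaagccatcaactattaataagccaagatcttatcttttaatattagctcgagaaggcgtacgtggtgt
The box begins 222 bases before the start of *PDF1.2* and 143 bases before that of *PDF1.2b*. These letters are not in the windows of *PDF1.2c* and *PDF1.3*. The window of *PDF1.2c* opens with cccatgtgaac, and in *PDF1.2* the same letters begin inside the box. It therefore cannot show whether *PDF1.2c* has the box, and windows set by annotated starts may cover unlike parts of these promoters. Among 27443 promoters of the same length, 2.26% hold a GCC box. The G-box (CACGTG, searched on both strands), a letter pattern that MYC2 binds, is in 7.09% of those promoters and, among the 10 genes, in that of *AOS* alone, 6 bases before its start.

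Expression of the 10 genes was first set out by library, before any test. All 10 passed the filter on low counts, but *PDF1.2* passed it only through the *fpa* libraries, as did 1 further jasmonate gene, *PDF1.3*. A gene that enters through the genotype where it is high had to differ, so fits of these 2 genes are given as descriptions. They are left out of the counts of calls, except in the closing section on processing, which names them where they are included. Genotypes were compared with edgeR's quasi-likelihood test over 20413 genes, with a gene called at a Benjamini-Hochberg adjusted p under 0.05, and each error of a fold change is its standard error (SE).

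**Figure D1:**
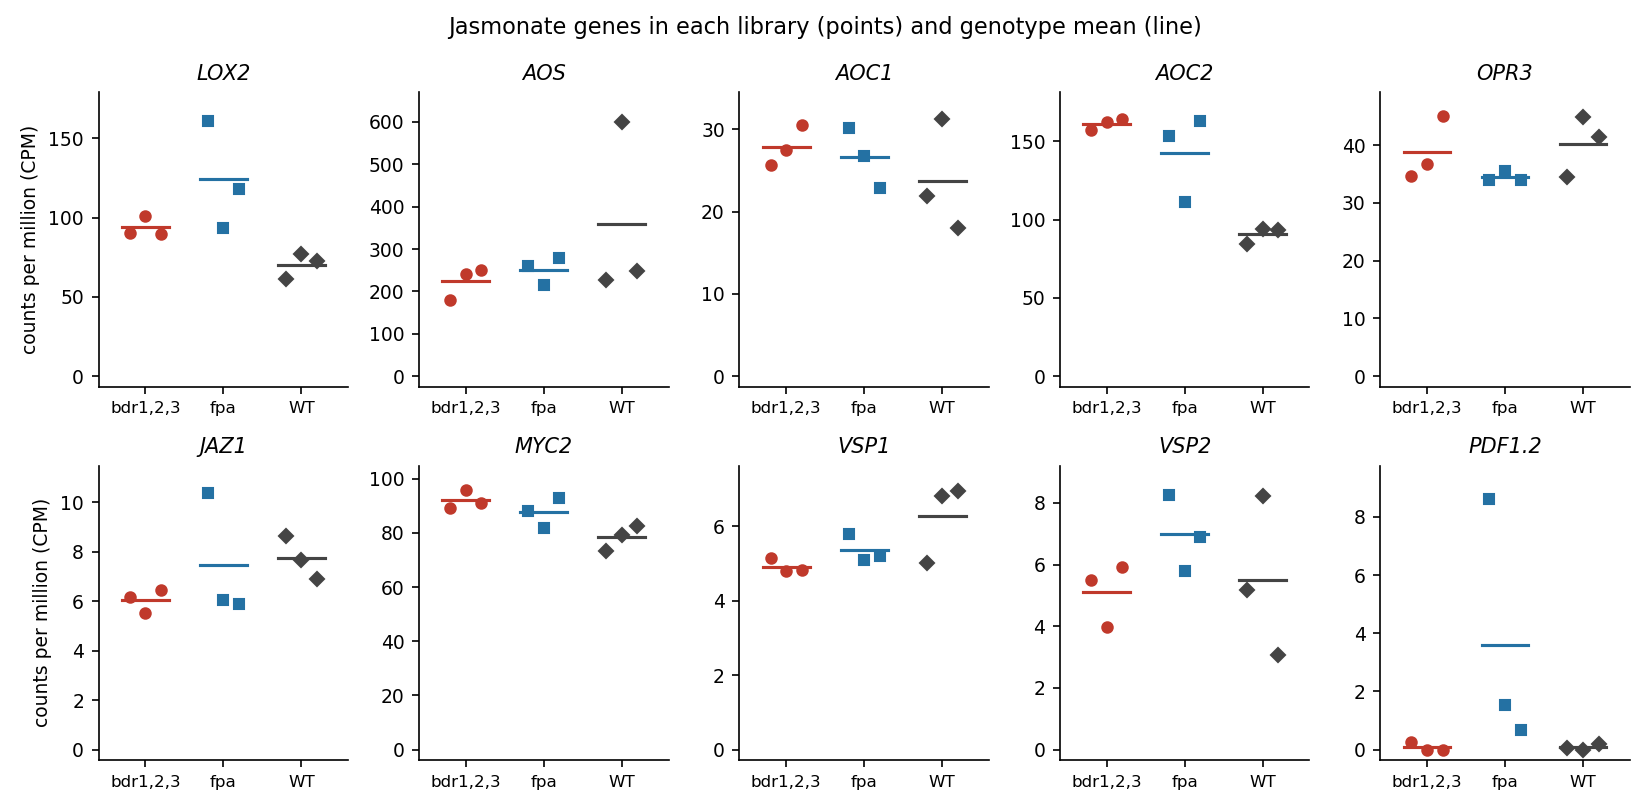
CPM (TMM-scaled counts) of each of the 10 jasmonate genes in the 3 libraries of *bdr1,2,3*, *fpa* and wild type (WT), with a line at the genotype mean; each panel has its own axis from 0. *AOC2* lies at 157 to 164 CPM in *bdr1,2,3* and 111 to 163 CPM in *fpa*, above 84.6 to 94.2 CPM in wild type, and 1 wild-type library holds *AOS* at 600 CPM.

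*AOC2* RNA was higher in both mutants than in wild type. The gene encodes an allene oxide cyclase and lies at chr3:9406669-9408071 on the plus strand (TAIR10.1). *AOC2* measured 157, 162 and 164 CPM in *bdr1,2,3* replicates 2, 4 and 7, 153, 111 and 163 CPM in *fpa* replicates 3, 6 and 8, and 84.6, 94.2 and 93.6 CPM in wild-type replicates 1, 12 and 5. The 3 *bdr1,2,3* libraries lay close together, *fpa* replicate 6 was the lowest of the mutant libraries, and neither mutant overlapped wild type. The fitted change was 1.78-fold in *bdr1,2,3* (log2 fold change 0.83 ± 0.15, adjusted p = 0.00689) and 1.57-fold in *fpa* (0.65 ± 0.15, adjusted p = 0.0304). The call in *bdr1,2,3* remained under all 12 alternatives tried, with fold changes of 0.78 to 0.85 on the log2 scale. In *fpa* the call was lost without replicate 3 (0.59, adjusted p = 0.13), without replicate 8 (0.54, 0.162), without wild-type replicate 1 (0.60, 0.0602), without wild-type replicate 5 (0.67, 0.0776) and in a fit of *fpa* and wild type alone (0.65, 0.073). Between *bdr1,2,3* and *fpa*, *AOC2* differed by 0.18 on the log2 scale, with a 95% interval from -0.13 to 0.50. In whole seedlings, a different number of expressing cells and a different amount of RNA per cell cannot be told apart.

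*LOX2* (chr3:16525245-16529352, plus strand), a lipoxygenase gene of the leaf wound response, was higher in *fpa* than in wild type. It measured 90.6, 101 and 89.9 CPM in *bdr1,2,3*, 161, 93.7 and 118 CPM in *fpa* and 61.1, 77.0 and 72.5 CPM in wild type, in the order of replicates given above, as for the genes that follow. All 6 mutant libraries lay above the 3 wild-type libraries, and *fpa* replicate 3 was the highest. The change in *fpa* was 1.77-fold (log2 fold change 0.82 ± 0.18, adjusted p = 0.0234). That call was lost without *fpa* replicate 3 (0.59, adjusted p = 0.111), without *fpa* replicate 8 (0.86, 0.0691), without wild-type replicate 1 (0.73, 0.0514), without wild-type replicate 5 (0.85, 0.0614) and in a fit of the 2 genotypes alone (0.82, 0.0603). In *bdr1,2,3* the change of 0.42 ± 0.18 did not pass the test (adjusted p = 0.272), nor did the difference of -0.40 between *bdr1,2,3* and *fpa* (95% interval -0.78 to -0.02, adjusted p = 0.299).

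*AOS* (chr5:17097564-17099595, minus strand), whose enzyme follows LOX2 in the chloroplast, depended on 1 library. It measured 179, 242 and 250 CPM in *bdr1,2,3*, 261, 215 and 278 CPM in *fpa*, and 227, 600 and 248 CPM in wild type, where replicate 12 alone held 600 CPM. The fitted changes of -0.68 ± 0.29 in *bdr1,2,3* (adjusted p = 0.291) and -0.51 ± 0.29 in *fpa* (adjusted p = 0.359) did not pass the test. Without wild-type replicate 12 they were -0.09 and 0.08. This library also held the highest sum of leaf photosynthesis markers, and their part in the *AOS* value was not tested.

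*AOC1*, the tandem neighbor of *AOC2*, and *OPR3* did not pass the test in any comparison. *AOC1* measured 25.7, 27.5 and 30.5 CPM in *bdr1,2,3*, 30.2, 26.7 and 22.8 CPM in *fpa* and 21.9, 31.3 and 18 CPM in wild type. The mutant libraries lay inside the wild-type range, whose top was again replicate 12. Its log2 fold changes were 0.26 ± 0.19 in *bdr1,2,3* and 0.19 ± 0.19 in *fpa* (adjusted p = 0.573 and 0.637), and 0.48 and 0.42 without wild-type replicate 12. *OPR3* measured 34.7, 36.7 and 45.0 CPM in *bdr1,2,3*, 33.9, 35.5 and 34.0 CPM in *fpa* and 34.5, 44.8 and 41.4 CPM in wild type. The 3 genotypes overlapped, and the 95% interval of its log2 fold change was -0.36 to 0.26 in *bdr1,2,3*, with -0.53 to 0.09 in *fpa*.

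The regulators *JAZ1* and *MYC2* did not pass the test either. *JAZ1* measured 6.18, 5.53 and 6.46 CPM in *bdr1,2,3*, 10.4, 6.06 and 5.90 CPM in *fpa* and 8.65, 7.66 and 6.91 CPM in wild type. The *bdr1,2,3* libraries all lay below wild type, and *fpa* replicate 3 was the highest of all 9. The log2 fold changes of *JAZ1* were -0.35 ± 0.25 in *bdr1,2,3* (adjusted p = 0.538) and -0.06 ± 0.25 in *fpa* (adjusted p = 0.925), with intervals of -0.89 to 0.18 and -0.59 to 0.47. *MYC2* measured 89.3, 96.0 and 91.1 CPM in *bdr1,2,3*, 88.2, 81.7 and 93.0 CPM in *fpa* and 73.5, 79.1 and 82.4 CPM in wild type. The *bdr1,2,3* libraries all lay above wild type, and 1 *fpa* library lay inside the wild-type range. The log2 fold changes of *MYC2* were 0.23 ± 0.12 in *bdr1,2,3* (adjusted p = 0.378) and 0.16 ± 0.12 in *fpa* (adjusted p = 0.488), with upper bounds of 0.49 and 0.42. *MYC2* shares 3241 bp with AT1G32630 on the opposite strand, a gene with 11 to 137 counts per library against 558 to 2412 for *MYC2*. The strand setting of the counting is not given in the sources used here, so reads of this pair may be mixed.

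Of the wound-response genes, *VSP1* and *VSP2*, which encode vegetative storage proteins, neither passed the test. *VSP1* measured 5.15, 4.78 and 4.81 CPM in *bdr1,2,3*, 5.78, 5.10 and 5.19 CPM in *fpa* and 5.02, 6.81 and 6.95 CPM in wild type. Wild-type replicate 1 lay within the range of the mutants, and its log2 fold changes were -0.34 ± 0.23 in *bdr1,2,3* (adjusted p = 0.513) and -0.22 ± 0.23 in *fpa* (adjusted p = 0.634). *VSP2* measured 5.49, 3.98 and 5.91 CPM in *bdr1,2,3*, 8.27, 5.79 and 6.90 CPM in *fpa* and 5.18, 8.23 and 3.06 CPM in wild type. Wild type spanned all but 1 of the mutant libraries, and the 95% interval of its change was -0.73 to 0.66 on the log2 scale in *bdr1,2,3*, with -0.27 to 1.1 in *fpa*. Without wild-type replicate 12 these fold changes of *VSP2* were 0.32 and 0.77, against -0.04 and 0.42 with it.

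*PDF1.2* (chr5:17906968-17907638, minus strand) was nearly silent outside *fpa*. It had 6, 0 and 0 counts in *bdr1,2,3*, 152, 29 and 14 counts in *fpa* and 1, 0 and 5 counts in wild type. Every *fpa* library lay above every other library, and replicate 3 alone held 77.9% of the *fpa* counts. As a description, the fitted log2 fold change was 4.98 ± 1.15 in *fpa* against wild type (adjusted p = 0.0324), -0.18 ± 1.54 in *bdr1,2,3* against wild type (adjusted p = 0.968) and -5.16 ± 1.13 in *bdr1,2,3* against *fpa* (adjusted p = 0.0198). These fits rest on few counts outside *fpa*, and without *fpa* replicate 3 the fold changes were 3.32 (adjusted p = 0.202) against wild type and -3.48 (adjusted p = 0.178) between the mutants. The adjusted p against wild type was also above 0.05 without *fpa* replicate 6 (5.35, adjusted p = 0.0545), wild-type replicate 1 (4.63, 0.064) or wild-type replicate 5 (6.35, 0.0762), and that between the mutants without *bdr1,2,3* replicate 4 (-4.51, 0.101) or 7 (-4.77, 0.0696). Without *bdr1,2,3* replicate 2, which held all 6 of that genotype's counts, the fitted difference was -9.07 (adjusted p = 0.0288), a value that is no bound because the remaining *bdr1,2,3* libraries were at 0.

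**Figure D2:**
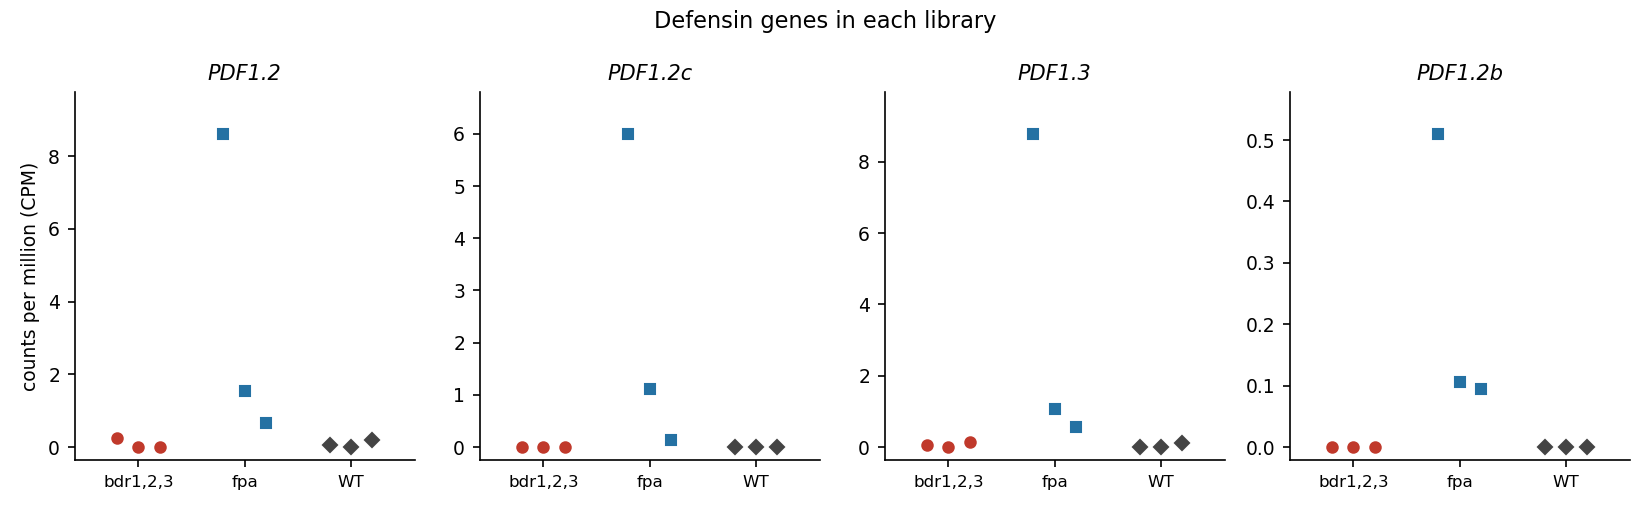
CPM (TMM-scaled counts) of the defensin genes *PDF1.2*, *PDF1.2c*, *PDF1.3* and *PDF1.2b* in each library of *bdr1,2,3*, *fpa* and wild type (WT), each panel on its own axis. *fpa* replicate 3 is the highest point in every panel, at 8.61 CPM for *PDF1.2*, and the *bdr1,2,3* and wild-type points lie at or near 0.

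The near-copies of *PDF1.2* had the same libraries high. *PDF1.2c* (AT5G44430) had 106, 21 and 3 counts in *fpa* and 0 in all *bdr1,2,3* and wild-type libraries. Pooled over libraries, its *fpa* level was 40.0-fold a floor of 3 counts over the wild-type group, or 10.7-fold without *fpa* replicate 3. The floor covers counting error only, so these ratios do not bound the difference between genotypes. In *fpa* replicate 8 *PDF1.2c* was at 0.143 CPM, against a floor of 0.0565 CPM. *PDF1.3* (AT2G26010) had 1, 0 and 2 counts in *bdr1,2,3*, 155, 20 and 12 in *fpa* and 0, 0 and 3 in wild type. It too passed the filter only through *fpa*, and its fitted log2 fold change there, as a description, was 5.83 ± 1.27 (adjusted p = 0.0246). Pooled over libraries, the ratio of *fpa* to wild type for *PDF1.3* was 57.6 (187 against 3 counts, exact 95% interval 19.4 to 282, counting error only). That interval leaves out the spread between libraries, so it does not bound the difference between genotypes. Replicate 3 held 82.9% of the *fpa* counts of *PDF1.3*. Without that library the pooled *fpa* level was 0.803 CPM, against 3.25 CPM with it and 0.0565 CPM in wild type. The adjusted p of *PDF1.3* was above 0.05 without *fpa* replicate 3, wild-type replicate 1 or wild-type replicate 5 and in a fit of the 2 genotypes, with log2 fold changes of 3.79 to 8.99 over all alternatives and an adjusted p up to 0.164. *PDF1.2b* (AT2G26020) had 9, 2 and 2 counts in *fpa* and 0 elsewhere. Together the 4 genes had 422, 72 and 31 counts in *fpa*, 9 in all of *bdr1,2,3* and 9 in all of wild type, and 80.4% of the *fpa* counts came from replicate 3. *PDF1.1* (AT1G75830), a defensin gene of another locus, had 26, 11 and 15 counts in *bdr1,2,3*, 5, 9 and 8 in *fpa* and 13, 9 and 13 in wild type.

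Reads of the family can be told apart in most of their length. Of all stretches of 49 bases, the read length, in the exons of *PDF1.2*, 0.828% occur again in the genome, in *PDF1.2c*, while 5.85% of those of *PDF1.2b* and 5.73% of those of *PDF1.3* are shared between this pair. The authors kept uniquely aligned reads, so an identical stretch gives no count to either copy. For the other duplicated pairs, 2.28% of the stretches of *AOC1* and 0.166% of those of *AOC2* recur in *AOC3*, and 0.503% of those of *VSP1* recur in *VSP2*. The stretches of *LOX2*, *AOS*, *OPR3*, *JAZ1* and *MYC2* did not recur. These are exact matches in the unspliced genome, and reads with mismatches were not considered.

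Calls were counted over the 9 genes other than *PDF1.2*, beside the 20074 genes that, like them, did not pass the filter through 1 genotype alone. In *bdr1,2,3* against wild type 1 of the 9 was called higher (*AOC2*) and 0 lower, beside 0.563% and 1.88% of those 20074 genes (0.603% and 1.88% of all 20413 tested). At an unadjusted p under 0.05 edgeR had 2 higher (*LOX2* and *AOC2*) and 1 lower (*AOS*), where 6.35% and 8.75% of all genes tested reached that p, and DESeq2 called 1 higher and 0 lower. In *fpa* against wild type 2 of the 9 were called higher (*LOX2* and *AOC2*) and 0 lower, beside 1.04% and 1.83% of those genes (1.28% and 1.82% of all). At an unadjusted p under 0.05 edgeR had 2 higher and 0 lower, where 8.96% and 10.9% of all genes reached it, and DESeq2 called 2 higher and 0 lower. Between *bdr1,2,3* and *fpa* 0 of the 9 were called in either direction, beside 1.35% higher and 1.86% lower (1.38% and 2.16% of all), with 0 higher and 1 lower at an unadjusted p under 0.05, which 7.20% and 7.68% of all genes reached, and 0 by DESeq2. The median log2 fold change of the 9 was -0.04, 0.16 and -0.12 in these comparisons, against 0.01, 0.00 and 0.01 over all genes tested. Each genotype's libraries enter 2 of the comparisons.

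**Figure D3:**
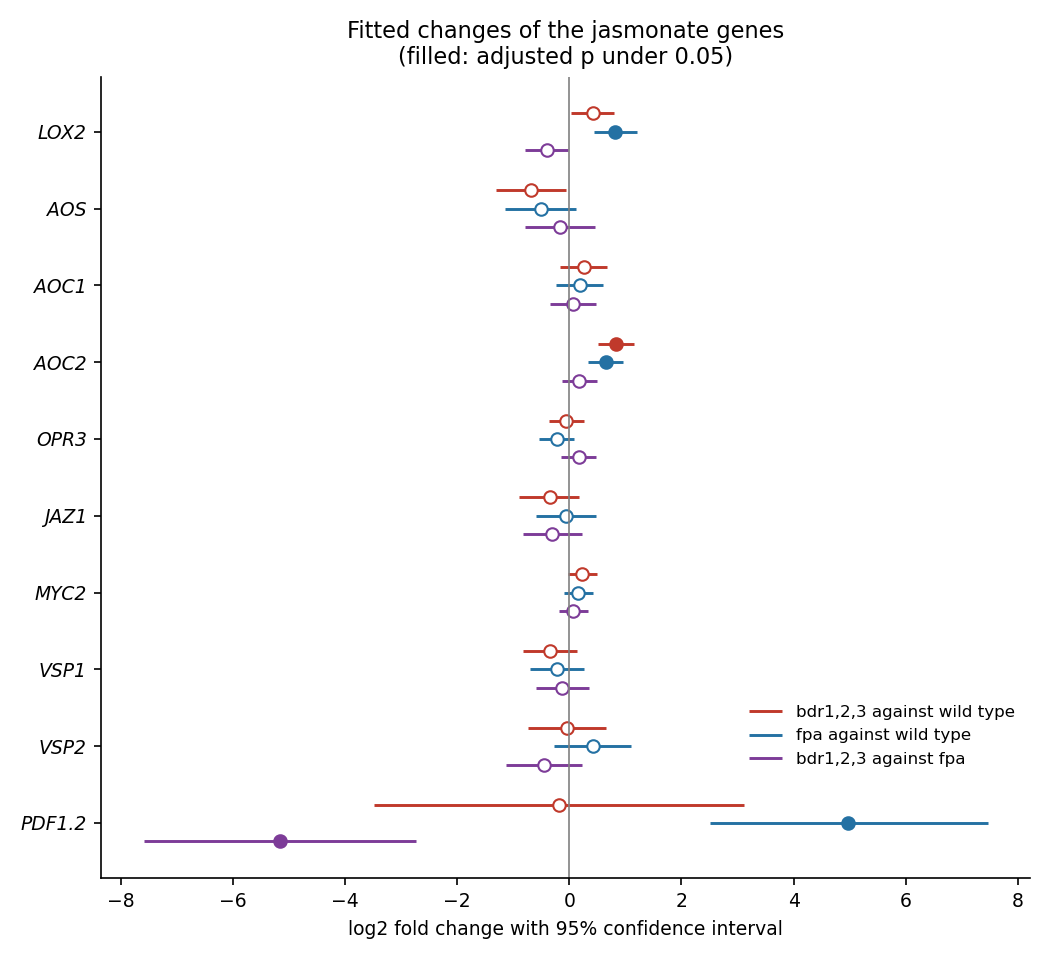
Fitted log2 fold change of each of the 10 genes, with its 95% confidence interval, for *bdr1,2,3* against wild type, *fpa* against wild type and *bdr1,2,3* against *fpa*. Filled points have an adjusted p under 0.05: *AOC2* in both mutants (0.83 and 0.65), *LOX2* in *fpa* (0.82), and *PDF1.2* in *fpa* (4.98) and between the mutants (-5.16), a gene that entered the test through *fpa* alone.

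Levels were compared between genes per exon length, as RPKM. *AOC2* and *AOS* were the most abundant, at 124 ± 2.58 and 110 ± 19.2 RPKM in *bdr1,2,3*, 109 ± 21.2 and 124 ± 16.0 in *fpa*, and 69.8 ± 4.13 and 176 ± 103 in wild type (SD, n = 3). The ranges of these 2 genes overlapped in both mutants and did not overlap in wild type, where the lowest *AOS* library (112 RPKM) was above the highest *AOC2* library (72.4 RPKM). *LOX2*, *MYC2*, *AOC1* and *OPR3* formed a middle group of 22.7 to 28.9 RPKM in *bdr1,2,3*, 20.2 to 38.1 in *fpa* and 19.9 to 23.8 in wild type. In wild type each neighbor in the order of this group overlapped the next, whereas in *fpa* *LOX2* lay above *MYC2* in every library. *JAZ1*, *VSP1* and *VSP2* were 3.36 to 4.68 RPKM in every genotype and overlapped each other. *PDF1.2* was the lowest gene in *bdr1,2,3* (0.148 ± 0.257 RPKM) and wild type (0.137 ± 0.166), and in *fpa* its 6.23 ± 7.52 RPKM overlapped *VSP2*, the gene next in order.

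**Figure D4:**
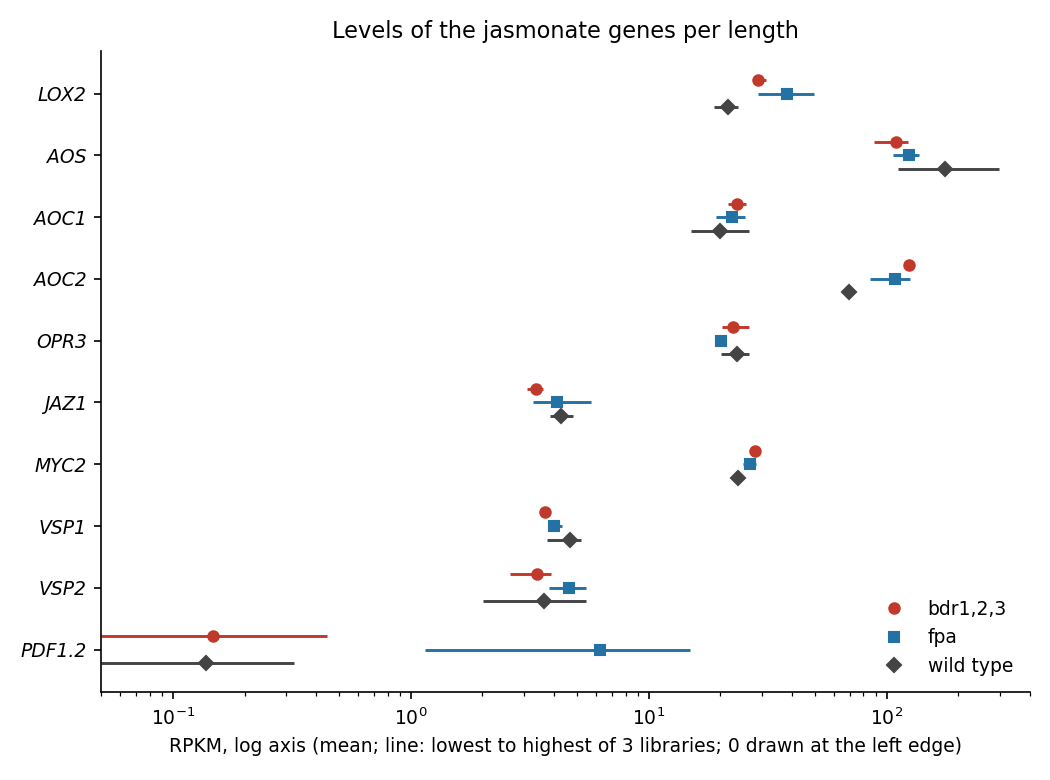
Level of each gene as CPM per kilobase of exon (RPKM, log axis) in *bdr1,2,3*, *fpa* and wild type; points are means of 3 libraries and lines run from the lowest to the highest. *AOS* and *AOC2* are the most abundant at 69.8 to 176 RPKM, and the *PDF1.2* mean is 6.23 RPKM in *fpa* and below 1 elsewhere.

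Among the 10 genes, log2 CPM of *AOC2* and *MYC2* moved most alike over the 9 libraries (Pearson r = 0.94), followed by *LOX2* with *AOC2* (0.74) and *LOX2* with *PDF1.2* (0.73). *AOC1* and *AOC2*, which lie side by side, had r = 0.41, and *VSP1* and *VSP2* had r = -0.01. *AOS* and *AOC2*, which act in consecutive steps, had r = -0.32. These values are descriptions, since the 9 libraries share genotypes and wild-type replicate 12 carries much of the spread of *AOS*. Over all 20413 genes tested, the gene most like *PDF1.2* was its near-copy *PDF1.3* (r = 0.952), followed by AT2G44430 (0.951) and AT5G02170 (0.947). *PDF1.2* and *PDF1.3* held 77.9% and 82.9% of their *fpa* counts in replicate 3 and had few counts outside *fpa*. The part of that library in the r values of *PDF1.2*, that with *LOX2* included, was not tested. The genes most like the other 9 were not in the list of jasmonate genes. For *AOC2* they were *GRP9* (AT2G05440, r = 0.964), *MAM1* (AT5G23010, 0.951) and AT3G25640 (0.951), for *LOX2* *GA3* (AT5G25900, 0.978), *CYP86A1* (AT5G58860, 0.957) and *BGLU18* (AT1G52400, 0.955), and for *AOS* AT4G34215 (0.990), *NSP5* (AT5G48180, 0.987) and *PUB26* (AT1G49780, 0.984). For the others the first in order was *EDA12* (AT2G35950, 0.936) for *AOC1*, AT1G54120 (0.962) for *OPR3*, *emb1187* (AT2G26830, 0.915) for *JAZ1*, AT3G23570 (0.962) for *MYC2*, AT5G57887 (0.940) for *VSP1* and AT4G28360 (0.921) for *VSP2*.

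The neighbors of the 10 genes on the chromosome were listed because the study concerns the borders between genes. Upstream, the closest protein-coding gene shared the strand of 8 of the 10, all but *LOX2* and *VSP1*, where 52.0% of 27439 protein-coding genes share it. With the nearest tested gene of any type in its place the count was 7 of the 10, since that of *OPR3* lies on the other strand. Gaps to the 8 neighbors ran from 1211 bp (*PDF1.2*) to 9197 bp (*OPR3*), longer than those of the closely spaced tandem genes in the paper. For *AOC2*, *VSP2* and *PDF1.2* that neighbor is a near-copy (*AOC1*, *VSP1* and *PDF1.2c*). *AOC1*, *AOC2* and *AOC3* stand head to tail on chromosome 3 with gaps of 1330 and 1088 bp, and of the 3 *AOC2* alone was called in either mutant. *AOC3* (AT3G25780) had log2 fold changes of 0.21 ± 0.26 in *bdr1,2,3* and 0.29 ± 0.26 in *fpa* (adjusted p = 0.75 and 0.575). *VSP1* lies 5365 bp before *VSP2*, and AT1G19190 lies 154 bp after *JAZ1*. AT1G19190 was not called (log2 fold change -0.20 in *bdr1,2,3* and 0.32 in *fpa*). AT5G44440, the gene before the *PDF1.2c* and *PDF1.2* pair and the nearest tested one on that side, had 4, 9 and 6 counts in *bdr1,2,3*, 0, 1 and 10 in *fpa* and 29, 31 and 67 in wild type. It passed the filter only through wild type, so its fits are descriptions. Its log2 fold change in *fpa* was -3.82 ± 0.84 (adjusted p = 0.0259), with an adjusted p above 0.05 without *fpa* replicate 3, *fpa* replicate 6 or wild-type replicate 5 (up to 0.113). In *bdr1,2,3* it was -3.12 ± 0.79 (adjusted p = 0.0553).

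Around the 10 genes, 64 further genes of the pathway were read in 6 groups, of which 50 were tested, and calls were counted over the 49 other than *PDF1.3*. In *bdr1,2,3* against wild type 1 was called higher and 0 lower, beside 0.563% and 1.88% of the 20074 genes above. In *fpa* against wild type 0 were called in either direction, beside 1.04% and 1.83%, and in *bdr1,2,3* against *fpa* 1 was called higher and 1 lower, beside 1.35% and 1.86%. At an unadjusted p under 0.05 edgeR had 6 higher and 2 lower, 6 and 2, and 7 and 1 in these comparisons, beside the shares of all genes given above for that p, while DESeq2 called 1 higher and 1 lower (*FAD8*), 0 and 0, and 2 and 1. The median log2 fold change of the 49 genes was 0.10, 0.02 and 0.03, against 0.01, 0.00 and 0.01 over all genes tested. Of the 14 genes that were not tested, the highest count in any library was 106, that of *PDF1.2c* in *fpa* replicate 3.

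Of the 14 synthesis genes tested, *FAD8* (AT5G05580) was the only one called. Its enzyme is 1 of several desaturases that make linolenic acid, from which jasmonate starts. The desaturase genes *FAD7* and *FAD3* were not called. *FAD7* was more abundant, with means of 314 CPM in *bdr1,2,3*, 309 CPM in *fpa* and 265 CPM in wild type. Against wild type its log2 fold changes were 0.24 in *bdr1,2,3* and 0.22 in *fpa*, and those of *FAD3* were 0.22 and 0.32. *FAD8* measured 19.1, 16.4 and 16.5 CPM in *bdr1,2,3*, 32.4, 24.8 and 33.0 CPM in *fpa* and 25.5, 23.8 and 25.3 CPM in wild type. The *bdr1,2,3* libraries lay below all others. The difference between *bdr1,2,3* and *fpa* was -0.79 ± 0.15 on the log2 scale (adjusted p = 0.00848), and the change against wild type was -0.52 ± 0.15 in *bdr1,2,3* (adjusted p = 0.106). The call between the mutants was lost without *bdr1,2,3* replicate 4, *fpa* replicate 3 or *fpa* replicate 8, with fold changes of -0.91 to -0.72 over all alternatives and an adjusted p up to 0.058. *AOC4* (AT1G13280), the cyclase gene outside the tandem, was at 25.4 to 33.0 CPM in *bdr1,2,3*, 25.8 to 35.3 CPM in *fpa* and 25.5 to 36.2 CPM in wild type. None of the 12 genes tested for perception and repression, which include *COI1* and other *JAZ* genes, was called in any comparison by edgeR or DESeq2, with 1, 1 and 0 at an unadjusted p under 0.05, and their log2 fold changes against wild type lay between -0.73 and 0.50 in *bdr1,2,3*, with -0.32 and 0.41 as bounds in *fpa*.

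Of the 9 transcription factor genes tested, *ORA59* and *ANAC055* were called. *ORA59* (AT1G06160), the activator of *PDF1.2*, measured 6.95, 8.20 and 6.81 CPM in *bdr1,2,3*, 6.63, 2.18 and 4.09 CPM in *fpa* and 2.54, 2.41 and 2.05 CPM in wild type. Every *bdr1,2,3* library lay above every *fpa* and wild-type library, and *fpa* replicate 3, the library with most *PDF1.2*, was the highest of its genotype. The change in *bdr1,2,3* was 1.66 ± 0.35 on the log2 scale (adjusted p = 0.0193), and that in *fpa* was 0.89 ± 0.35 (adjusted p = 0.182). The call was lost without *bdr1,2,3* replicate 2, *bdr1,2,3* replicate 4 or wild-type replicate 5, with fold changes of 1.56 to 1.74 and an adjusted p up to 0.0955. *PDF1.2* had 6 counts in all of *bdr1,2,3* and 6 in all of wild type. As a description, its fitted change in *bdr1,2,3* was -0.18 ± 1.54 on the log2 scale, with an interval of -3.48 to 3.12. This interval was too wide to show whether *PDF1.2* followed *ORA59* in *bdr1,2,3*, and a link between these genes was not tested. The difference of *ORA59* between *bdr1,2,3* and *fpa* was 0.77 ± 0.33 (adjusted p = 0.276). *ERF1* had 3, 4 and 5 counts in *bdr1,2,3*, 0, 0 and 16 in *fpa* and 2, 0 and 1 in wild type, and was not tested.

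*ANAC055* (AT3G15500), a NAC factor gene downstream of MYC2, measured 14.3, 12.1 and 14.3 CPM in *bdr1,2,3*, 8.61, 7.22 and 5.47 CPM in *fpa* and 8.65, 7.09 and 9.97 CPM in wild type. The *bdr1,2,3* libraries lay above all others. It differed by 0.94 ± 0.21 on the log2 scale between *bdr1,2,3* and *fpa* (adjusted p = 0.0222), and its change in *bdr1,2,3* against wild type was 0.64 ± 0.21 (adjusted p = 0.152). The call was lost without any 1 of the *bdr1,2,3* libraries and without *fpa* replicate 6 or 8, with fold changes of 0.78 to 1.1 and an adjusted p up to 0.129. The 8 turnover genes tested and the 3 tested response genes of the MYC branch had 0 calls by edgeR in all comparisons. For turnover, 0, 2 and 3 genes had an unadjusted p under 0.05, and DESeq2 called 1, *CYP94B3*, higher in *bdr1,2,3* than in *fpa*. For the MYC branch these counts were 1, 0 and 0, with 0 calls by DESeq2. Of the 4 tested response genes of the ERF branch, none but *PDF1.3*, which entered through *fpa*, had an adjusted p under 0.05 by edgeR or DESeq2. At an unadjusted p under 0.05 edgeR had 2, 1 and 2 of them. The 2 in *bdr1,2,3* against wild type were 1 higher and 1 lower, and *PDF1.3* was among those of the other comparisons. As a description, *PDF1.3* differed by -5.96 ± 1.24 between *bdr1,2,3* and *fpa* (adjusted p = 0.0141), with an adjusted p above 0.05 without *bdr1,2,3* replicate 2, *bdr1,2,3* replicate 4 or *fpa* replicate 3, and with fold changes of -7.0 to -3.86 over all alternatives and an adjusted p up to 0.14.

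**Figure D5:**
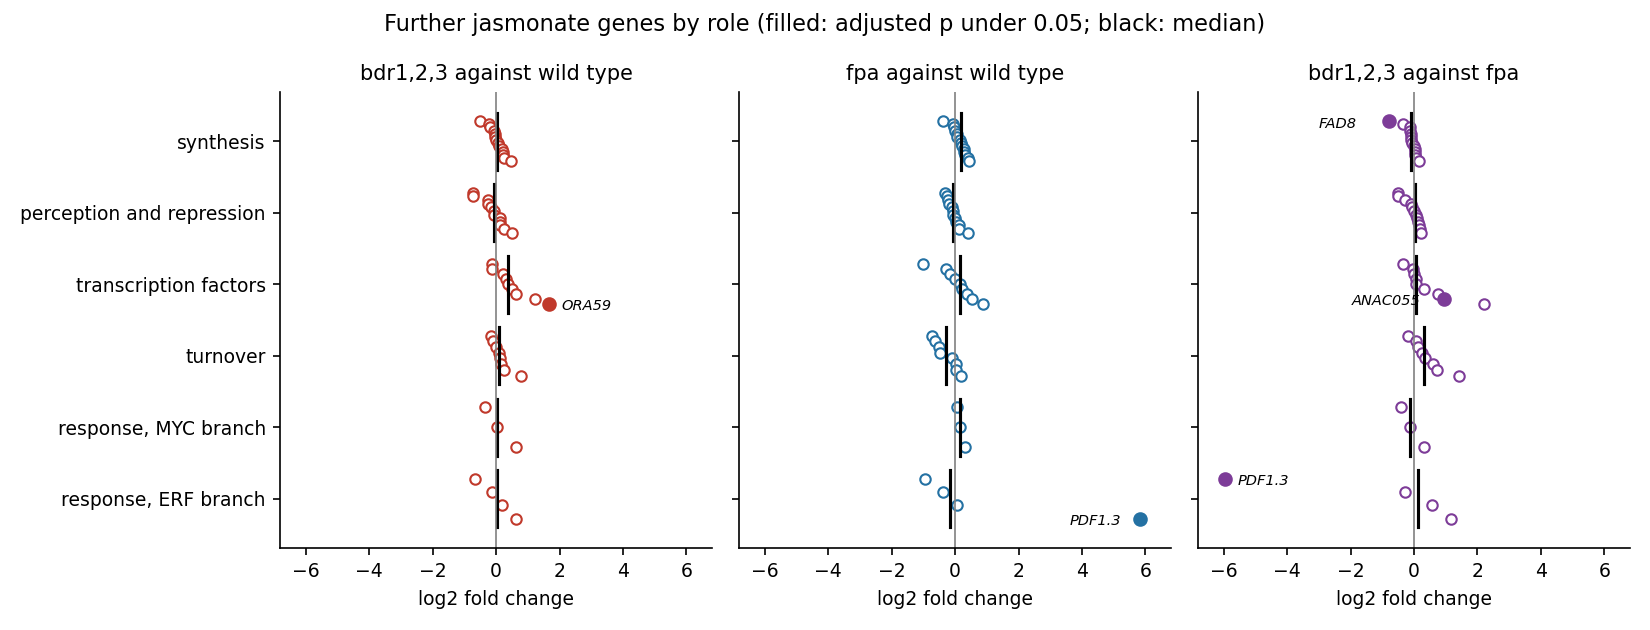
Log2 fold change of the 50 further jasmonate genes tested, by role, for *bdr1,2,3* against wild type, *fpa* against wild type and *bdr1,2,3* against *fpa*; filled points have an adjusted p under 0.05 and black lines are group medians. They are *ORA59* (1.66) in the first, *PDF1.3* (5.83) in the second, and *FAD8* (-0.79), *ANAC055* (0.94) and *PDF1.3* (-5.96) in the third comparison, *PDF1.3* having entered the test through *fpa* alone.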

How the data were processed

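Whole seedlings of 3 genotypes were profiled by RNA-seq, with 3 libraries each, described as biological replicates. The authors aligned single-end reads of 49 bases to TAIR10 (per the labels TopHat2 2.0.8, SAMtools 1.2 and featureCounts), kept uniquely aligned reads and deposited unnormalized counts per gene. A deposited normalized table of 8 libraries, without wild-type replicate 12, was not used. Labels and methods differ on growth temperature, *bdr2* and *bdr3* stock names and library kit.

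These counts went into edgeR 4.0.16 under R 4.3.3 (defaults of filterByExpr, TMM, 1 fit of the 3 genotypes, glmQLFTest, two-sided, Benjamini-Hochberg over 20413 genes). Depth limited genes with few counts, and the common biological coefficient of variation was 0.188. An SE is the size of the log2 fold change over the root of the F statistic. Sequences, borders and neighbors come from RefSeq TAIR10.1, which matched 98.5% of nuclear identifiers and may differ from the authors' gene borders. A floor is 3 counts over a group and covers counting error only. Alternatives were DESeq2 1.42.0, RLE size factors, 2 other filters, fits of 2 genotypes, an adjusted p under 0.01 and each library left out, 12 per comparison. The method was tested on simulated data. The 10 genes and the lists were chosen with earlier results of these data known. All 10 genes were named, as were list genes that passed the test, near-copies and, where the results turn on them, neighbors and the 3 or, for 6 genes, the 1 most alike. *FAD3* and *FAD7* were named beside *FAD8*.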

Additional observations from a re-analysis of the deposited data

Results flagged for a closer look

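By the direct edgeR test *FAD8* and *ANAC055* differed between the mutants. They are 2 of the 58 jasmonate genes tested that did not pass the filter through 1 genotype alone, 1 higher and 1 lower. Of all such genes 1.35% were called higher and 1.86% lower. The count is thus near the share over all genes and is no result about the jasmonate genes as a set. The difference of *bdr1,2,3* minus *fpa* was -0.79 on the log2 scale for *FAD8* (adjusted p = 0.00848), whose 3 *bdr1,2,3* libraries lay below the 3 *fpa* libraries, and 0.94 for *ANAC055* (adjusted p = 0.0222), whose 3 *bdr1,2,3* libraries lay above them. Each of these calls was lost when any of several single libraries was left out, with an adjusted p up to 0.058 for *FAD8* and 0.129 for *ANAC055*. The defensin genes *PDF1.2* (-5.16) and *PDF1.3* (-5.96) had larger fitted differences, but both entered the test through *fpa* alone, with most of their counts in *fpa* replicate 3, and their values are descriptions.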

How the results depend on the processing

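Of 356 fold changes of the 10 genes read under the alternatives, 322 kept direction and side of the threshold, 21 lost a call and 13 changed sign, and the cause was not tested. These include the alternative of an adjusted p under 0.01, which repeats the main fit. It could lose a call but could not change a fold change. Members called numbered 1 in *bdr1,2,3* under every alternative. In *fpa* against wild type they numbered 3, or 2 without *PDF1.2*, which entered through *fpa*. With *PDF1.2* included that count was 1 in a fit of 2 genotypes (*PDF1.2* itself), 0 at an adjusted p under 0.01 and 0 to 3 with a library left out. Between the mutants *PDF1.2* was the 1 member called. That count was 0 with at least 10 counts in every library, which leaves *PDF1.2* untested, 0 at 0.01 and 0 to 1 with a library left out. List genes called numbered 1 in *bdr1,2,3* (2 by DESeq2, 0 at 0.01, 0 to 3 with a library left out), 1 in *fpa* (*PDF1.3*, which entered through *fpa*; 2 without a filter, 0 with at least 10 counts, 0 in a fit of 2 genotypes, 0 at 0.01, 0 to 3 with a library left out) and 3 between the mutants (*PDF1.3* included; 5 without a filter, 5 in a fit of 2 genotypes, 1 at 0.01, 0 to 2 with a library left out). Over all genes, 507, 633 and 722 calls became 880, 1419 and 1135 by DESeq2, 302, 388 and 1269 in fits of 2 genotypes and 229, 187 and 341 at 0.01, and ran from 279 to 656, 199 to 928 and 376 to 595 with a library left out. Signs changed only with a library left out and only where no call had been made. With a library left out, the log2 fold change in *bdr1,2,3* against wild type ran from -0.17 to 0.02 for *OPR3* (0.02 without replicate 2 or wild-type replicate 12), from -0.36 to 0.32 for *VSP2* (0.12 without replicate 4, 0.32 without wild-type replicate 12) and from -4.1 to 1.19 for *PDF1.2* (0.46 and 0.21 without replicates 4 and 7, 1.19 without wild-type replicate 5). In *fpa* against wild type it ran from -0.75 to 0.08 for *AOS* (0.08 without wild-type replicate 12) and from -0.37 to 0.08 for *JAZ1* (0.07, 0.08 and 0.04 without replicate 6, replicate 8 or wild-type replicate 1). Between the mutants it ran from -0.03 to 0.17 for *AOC1* (-0.03 without *fpa* replicate 8) and from -0.44 to 0.02 for *JAZ1* (0.02 without *fpa* replicate 3). RPKM from raw library totals moved no wild-type mean by more than its SD. No paired analysis was possible because the genotypes share no replicate numbers. Depth limits *PDF1.2*, *PDF1.3*, *PDF1.2b* and *PDF1.2c*, which had few counts outside *fpa*.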
